A study of Mus musculus with 4 samples.

Results

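The respiratory chain genes described here encode the nuclear subunits of complexes I to V of the inner mitochondrial membrane, together with some of their assembly factors. They were taken by symbol from an Affymetrix whole-transcript array of mouse inferior vena cava: genes starting with Ndufa, Ndufb, Ndufs, Ndufv, Sdh, Uqcr or Atp5, or with Cox followed by a number from 4 to 8, leaving out Cox7a1 and Cox8b. The rule took 88 of 18820 genes, 41 in complex I, 8 in complex II, 7 in complex III, 15 in complex IV and 17 in complex V, and used no measured value. After a filter on dim genes, 87 of the 88 were among 14115 kept genes. Cox7b2 was left out, with log2 levels of 1.52 to 1.76, and Cox8c, with levels of 2.22 to 2.59, was the dimmest that stayed.

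Complex I takes electrons from NADH and complex II takes them from succinate. Complex III passes them from ubiquinol to cytochrome c, and complex IV passes them on to oxygen. Complexes I, III and IV pump protons, and complex V, the ATP synthase, lets the protons flow back through a ring of c subunits to make ATP. Brown fat, which burns fuel for heat, and heart muscle are rich in mitochondria.

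The 4 groups were wild-type or Cd39-null mice, with the infra-renal vein dissected without ligation (sham) or ligated for 48 h to induce a clot by stasis. Cd39, encoded by Entpd1, is a surface enzyme that degrades extracellular ATP and ADP. Mice of both genotypes were crossed for 8 or more generations to C57BL/6J and were 8 to 10 weeks old. Sex was mixed or unstated, ligation could be complete or partial, and whether clot went into the RNA piece is not given. RNA of 4 mice was pooled for each group and each pool was hybridised to 1 array, so that no difference between arrays below has a replicate check and no spread between mice can be given.

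Levels are log2 expression values and are given, gene by gene, for wild type (sham, then ligated) and then Cd39-null (sham, then the array with the label Cd39-null, ligated). Entpd1 read 7.11, 6.17, 4.16 and 6.14 in that order. Its level on the Cd39-null, sham array was the low one. The array labelled Cd39-null, ligated, had it at the wild-type ligated level, which goes against that label. The medians over all genes and over each complex, and the counts at 2-fold, are therefore also given without it. The limma fit, the difference of the ligation differences, the correlation between the genotypes and the Cd39-null ligation values of single genes all need this array and have no version without it. Markers of the vein wall were present: all 10 endothelial markers were above the 95th percentile of olfactory receptor probe sets, a stand-in for background, on every array, and the 10 smooth muscle markers were above it on all arrays except for 1 marker on the array labelled Cd39-null, ligated. The summed linear signal of the smooth muscle markers was 2385, 1697, 973 and 619. In a bulk sample, fewer cells of a type and less RNA per cell cannot be told apart.

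The respiratory chain genes stood highest on the Cd39-null, sham array. Their median log2 level was 7.02, 7.03, 7.69 and 6.91 on the 4 arrays, where the median of all kept genes was 4.00, 4.09, 3.91 and 4.04. The Cd39-null, sham array held the highest level of 59 of the 87 genes, beside 23.2% of all kept genes, and the lowest of 5, beside 31.2%. Wild-type sham held the highest of 10 genes (28.3% of kept genes) and the lowest of 29 (21.5%). Wild-type ligated held 9 (23.0%) and 28 (18.2%), and the array labelled Cd39-null, ligated, 9 (25.5%) and 25 (29.1%). Between genotypes under sham, the median log2 difference (Cd39-null minus wild type) was 0.49 for the respiratory chain and -0.07 for all kept genes. Above 0 were 73 of 87, beside 43.3% of kept genes. In that comparison 13 of 87 were at least 2-fold higher, beside 2.95% of kept genes, and 0 of 87 were at least 2-fold lower, beside 3.54%. With 1.5-fold as the limit, 37 were higher (8.71% of kept genes) and 0 were lower (13.9%).

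**Figure D1:**
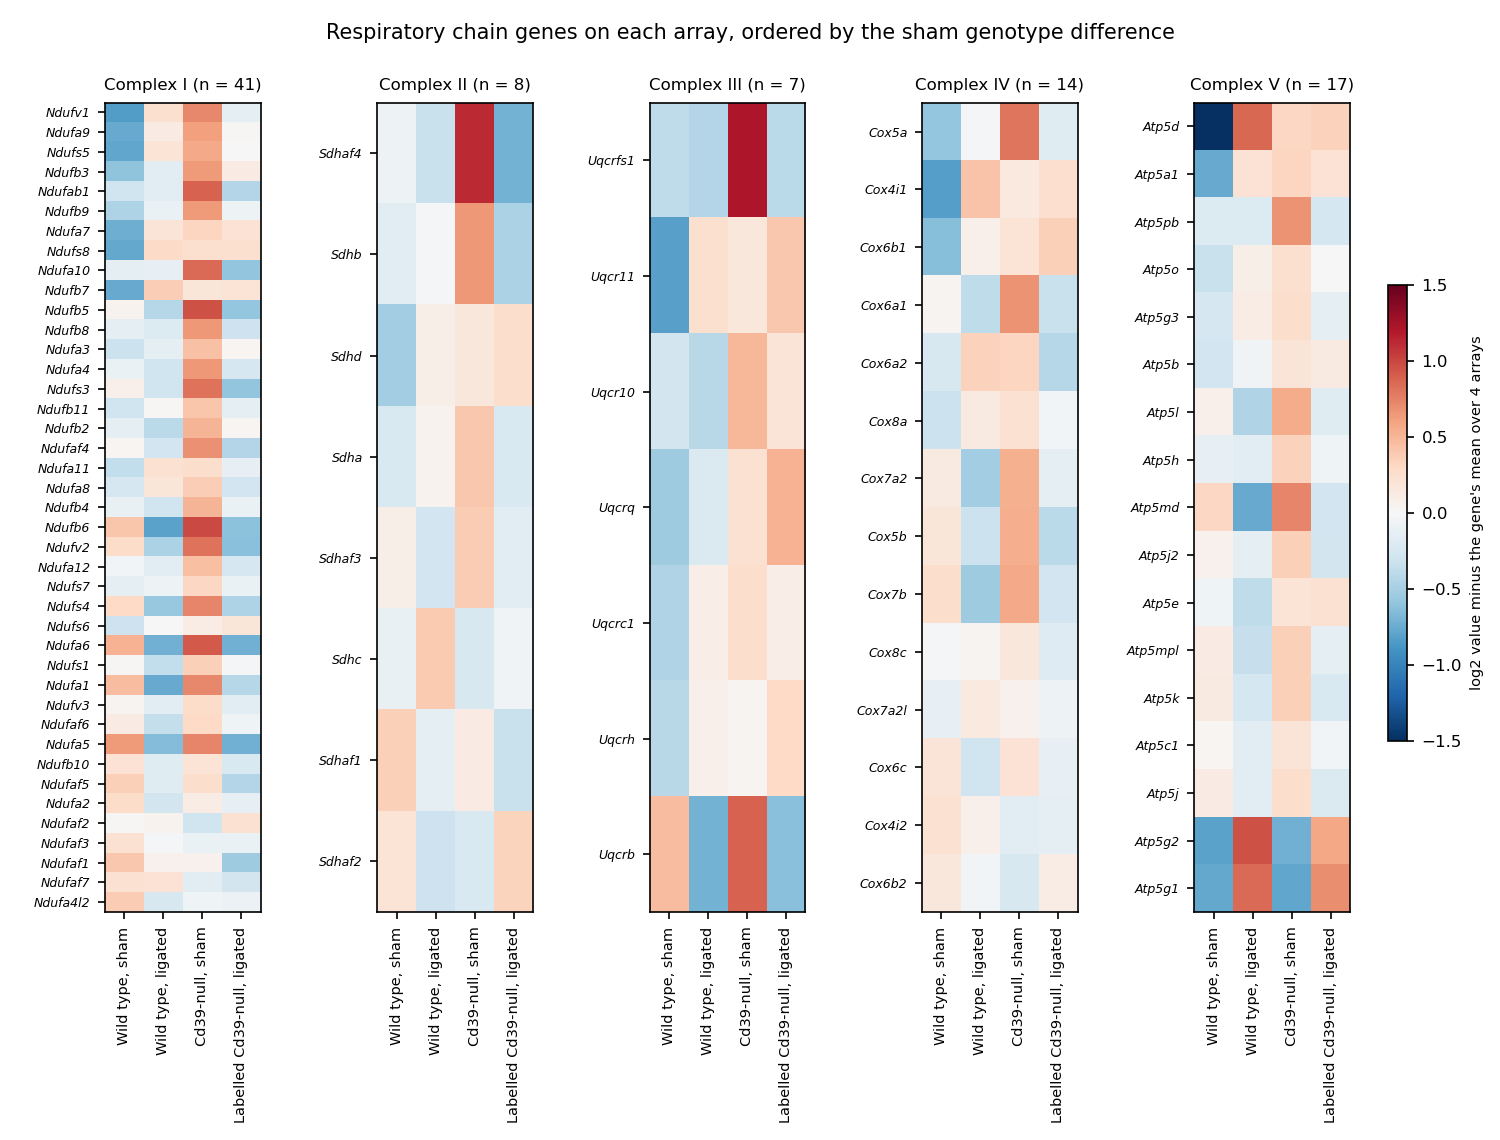
Each row is a respiratory chain gene (87 kept genes, in 5 panels by complex), each column an array, and colour is the log2 level minus the gene's mean over the 4 arrays. The Cd39-null, sham column is red in most rows (highest level in 59 of 87 genes), and Atp5g1 and Atp5g2 at the foot of complex V are red on both ligated arrays instead.

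Ligation gave different values in the genotypes. In wild type the median log2 difference (ligated minus sham) was -0.08 and the mean 0.03, beside -0.01 and 0.04 for all kept genes. There 8 of 87 genes were at least 2-fold higher (6.60% of kept genes) and 6 were at least 2-fold lower (3.63%). In Cd39-null, as labelled, the median was -0.48, beside 0.03 for all kept genes, with 2 genes at least 2-fold higher (10.9% of kept genes) and 17 at least 2-fold lower (5.80%). At 1.5-fold the counts were 16 higher (15.8% of kept genes) and 11 lower (11.8%) in wild type, and 2 higher (22.0%) and 37 lower (14.5%) in Cd39-null. Below 0 were 70 of 87 genes in Cd39-null, beside 48.3% of kept genes, and 47 of 87 in wild type, which is near the 50.6% of kept genes.

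Both this ligation difference and the sham genotype difference use the Cd39-null, sham array, so the pair of values is not independent. Set against the wild-type, sham array in its place, the array labelled Cd39-null, ligated, gave a median of -0.06 (-0.04 for all kept genes), with 7 of 87 genes at least 2-fold higher, near the 9.52% of kept genes, and 4 lower (6.58%). The wild-type ligated array, which leaves out the array with the doubtful label, gave -0.45 against Cd39-null, sham, where all kept genes had 0.06. That pair differs in genotype as well as in ligation. Gene by gene its value is the wild-type ligation difference minus the sham genotype difference, so it is no independent check. In that pair 2 genes were at least 2-fold higher (9.17% of kept genes) and 16 were lower (4.09%). By complex this pair of arrays gave -0.59 (I), -0.31 (II), -0.44 (III), -0.12 (IV) and -0.42 (V). Between the ligated arrays the median genotype difference was -0.03, equal to that of all kept genes, and 0 of 87 genes were 2-fold apart in either direction (3.61% of kept genes were higher and 2.66% lower). At 1.5-fold, Atp5e, Sdhaf2, Uqcr10 and Uqcrq were higher, 4 of 87 beside 8.40%, and Cox6a2 and Ndufaf1 lower, 2 of 87 beside 9.44%.

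The difference of the ligation differences (Cd39-null minus wild type) had a median of -0.43 for the respiratory chain and 0.04 for all kept genes. It was at least 2-fold in the lower direction for 20 of 87 genes (5.50% of kept genes) and in the higher direction for 1, Sdhaf2 (6.99%). At 1.5-fold it was 36 lower (13.9%) and 2 higher (17.7%). With 1 array a group it is a value with no error, and it also rests on the Cd39-null, sham array.

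**Figure D2:**
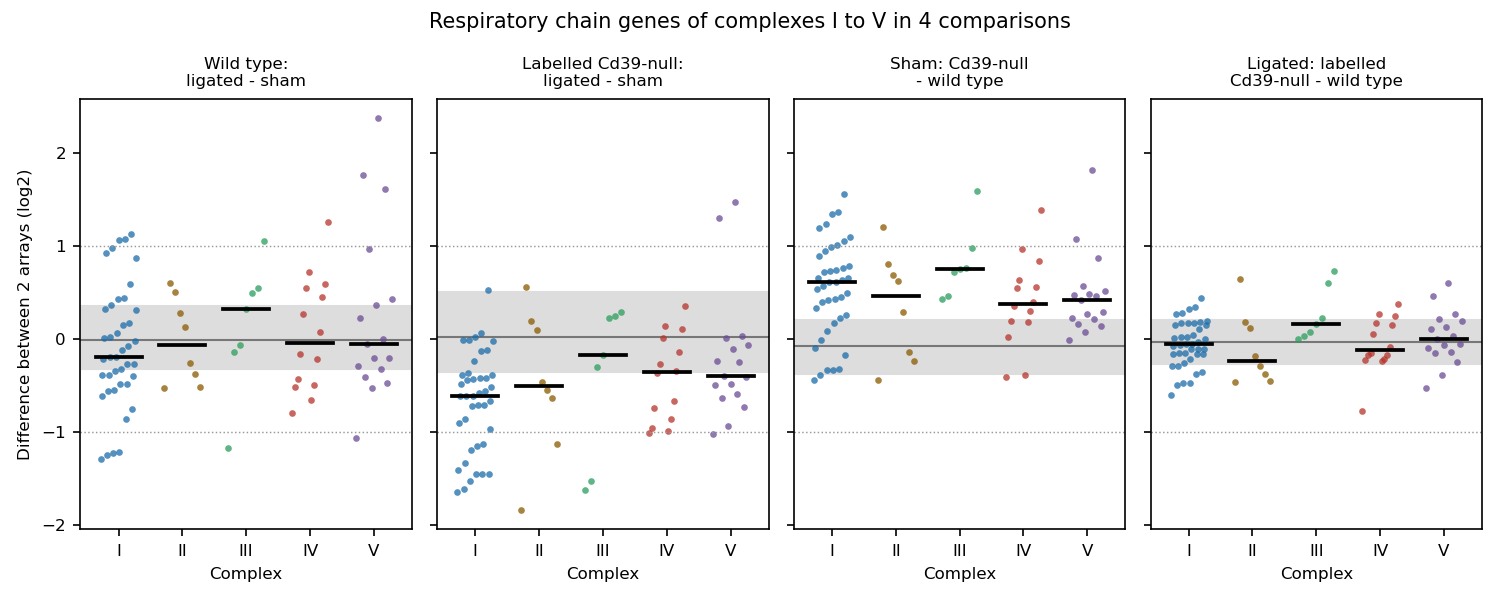
Each point is a gene and each panel a difference between 2 arrays (log2); black bars are the medians of complexes I to V, the grey line and band are the median and quartiles of all 14115 kept genes, and dotted lines mark 2-fold. In the sham genotype panel the 5 medians lie between 0.38 (complex IV) and 0.76 (complex III), and in the ligated panel between -0.23 (complex II) and 0.16 (complex III).

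Complex I, the entry point of electrons from NADH, had a median log2 difference of 0.61 between the sham genotypes. Above 0 were 33 of its 41 genes (43.3% of kept genes). Its ligation medians were -0.19 in wild type and -0.60 in Cd39-null. The core subunits of the family, most of which carry the flavin or iron-sulphur clusters, numbered 6. They had a sham genotype median of 0.63, beside 0.66 for the 27 accessory subunits. All 6 core subunits were above 0 in that comparison (43.3% of kept genes) and below 0 after ligation in Cd39-null (48.3%).

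Ndufv1, the core subunit that binds NADH, had log2 levels of 3.52, 4.60, 5.08 and 4.22. Ndufa9, an accessory subunit of the peripheral arm, stood at 5.35, 6.21, 6.72 and 6.11. Ndufs5, an accessory subunit on the intermembrane side, was measured at 7.28, 8.26, 8.63 and 8.05. Ndufb3, an accessory subunit of the membrane arm, gave 4.50, 4.94, 5.74 and 5.22. These 4 genes had the largest sham genotype differences of complex I, and in each the wild-type, sham array was lowest and the Cd39-null, sham array highest. The log2 differences between the sham arrays were 1.56 for Ndufv1, 1.37 for Ndufa9, 1.35 for Ndufs5 and 1.24 for Ndufb3. At the other end, Ndufb10 differed by -0.01 between the sham arrays, with log2 levels of 7.72, 7.32, 7.71 and 7.28, and Ndufa5 by 0.08. The 6 complex I genes of the 2-fold count beside Ndufv1 and Ndufa9 were Ndufa7, Ndufab1, Ndufb3, Ndufb9, Ndufs5 and Ndufs8.

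Several complex I genes were low on both ligated arrays. Ndufa5, an accessory subunit of the peripheral arm, had log2 levels of 7.76, 6.47, 7.84 and 6.39. Ndufa6, a small accessory subunit of the LYR family, had 8.08, 6.84, 8.48 and 6.84. Ndufb6, of the membrane arm, had 8.28, 7.06, 8.85 and 7.24. Like the 3 genes that follow, these were at least 1.5-fold lower after ligation in both genotypes, as were 10 of the 87 genes and 5.26% of kept genes. Ndufa1, a membrane-arm subunit encoded on the X chromosome, gave 8.38, 7.17, 8.64 and 7.49 (log2). Ndufs4, an accessory subunit that complex I needs for full activity, gave 8.48, 7.62, 8.92 and 7.73. Ndufv2, a core subunit with an iron-sulphur cluster, gave 7.47, 6.72, 8.01 and 6.57. The ligation differences on the log2 scale ran from -1.29 (Ndufa5) to -0.75 (Ndufv2) in wild type and from -1.64 (Ndufa6) to -1.14 (Ndufa1) in Cd39-null.

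Opposite values in the genotypes were found for Ndufv1 and Ndufa9. Ndufv1 was higher by 1.08 (log2) after ligation in wild type and lower in Cd39-null, at -0.85. Ndufa9 had ligation differences of 0.87 and -0.61. Both genes were lowest on wild-type sham and highest on Cd39-null, sham, so these values are not independent of their sham genotype differences. They and Cox6a2 of complex IV were the 3 genes of the 87 at least 1.5-fold higher after ligation in wild type and as far lower in Cd39-null, beside 0.503% of kept genes, and 0 genes had the reverse.

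Complex II, succinate dehydrogenase, is at once an enzyme of the citric acid cycle and a member of the chain. Sdha, the flavoprotein, had log2 levels of 6.59, 6.87, 7.22 and 6.59. Sdhb, the iron-sulphur subunit, had 7.02, 7.15, 7.83 and 6.70. Both were highest on the Cd39-null, sham array, by 0.63 and 0.81 (log2) over wild-type sham. The membrane anchors were not highest there: Sdhc had log2 levels of 6.80, 7.30, 6.66 and 6.86, highest on the wild-type ligated array. Sdhd had 3.77, 4.37, 4.46 and 4.55, with wild-type sham below the other arrays. Its sham genotype difference, 0.69, was like those of Sdha and Sdhb. Over the 4 subunits the ligation medians were 0.39 in wild type and -0.27 in Cd39-null.

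Of the complex II assembly factors, Sdhaf4, which helps to mature the flavinated Sdha, had log2 levels of 4.12, 3.86, 5.32 and 3.49. Its sham genotype difference of 1.20 and its Cd39-null ligation difference of -1.83 were the largest of the complex. Its other probe set, at 1.71 to 2.13 (log2), was at background and gave 0.23 and -0.42. Sdhaf1, which serves the iron-sulphur clusters of Sdhb, had 5.30, 4.79, 5.07 and 4.61, with the ligated arrays below the sham arrays. Its other probe set, at 2.47 to 3.21, gave positive ligation differences of 0.74 and 0.30.

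Complex III genes had the largest sham genotype median of the 5 complexes, 0.76 (log2), and all 7 were above 0 (43.3% of kept genes). Uqcrfs1, the Rieske iron-sulphur protein, had log2 levels of 6.20, 6.14, 7.79 and 6.17. The Cd39-null, sham array stood apart, at 1.59 above wild-type sham and 1.62 above its ligated counterpart, while the remaining 3 arrays lay within 0.06. Uqcr11, a small subunit, read 4.51, 5.56, 5.48 and 5.72 (log2), with wild-type sham low. Uqcr10, another small subunit, read 7.73, 7.59, 8.49 and 8.19, and Uqcrq, also small, read 4.64, 4.96, 5.40 and 5.69. In Uqcr10 and Uqcrq both arrays labelled Cd39-null were above both wild-type arrays. Uqcrh, the hinge protein, read 8.19, 8.68, 8.65 and 8.90 (log2), with wild-type sham lowest. Its other probe set, at 2.21 to 2.97, was near background. It gave a sham genotype difference of -0.76 where the brighter gave 0.46, and -0.48 after ligation in wild type where the brighter gave 0.49.

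Uqcrb, a small subunit at the ubiquinone site, was the complex III gene lowest after ligation in wild type. Its log2 levels were 8.12, 6.95, 8.54 and 7.03, both ligated arrays below both sham arrays, and its ligation differences were -1.17 in wild type and -1.52 in Cd39-null. The median ligation difference of complex III was 0.32 in wild type and -0.17 in Cd39-null, over genes that ran from -1.17 (Uqcrb) to 1.05 (Uqcr11) in wild type. These medians over 7 genes were not stable: the means were 0.15 and -0.40, the mean of each gene's probe sets gave a wild-type median of 0.079, and wild-type sham as the reference turned -0.17 into 0.55.

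Complex IV, cytochrome c oxidase, had a sham genotype median of 0.38 over 14 kept genes and ligation medians of -0.04 (mean 0.05) and -0.35 (log2). Cox5a, a subunit on the matrix side, had log2 levels of 7.21, 7.76, 8.59 and 7.61, highest on the Cd39-null, sham array. Cox4i1, the common form of subunit 4, had 6.45, 7.71, 7.43 and 7.54, with wild-type sham below the other arrays by 0.97 or more. Cox6b1, on the intermembrane side, had 8.07, 8.79, 8.91 and 9.06, again with wild-type sham lowest. Cox6a1, the common form of subunit 6a, showed 9.60, 9.17, 10.23 and 9.22 (log2), highest on the Cd39-null, sham array. Cox6c, a small subunit of the membrane part, showed 9.15, 8.66, 9.18 and 8.84 and differed by 0.03 between the sham arrays. Cox7a2, the common form of subunit 7a, showed 7.93, 7.28, 8.33 and 7.66, and Cox7b, a small subunit, showed 8.96, 8.16, 9.26 and 8.41. In the last 3 the ligated level lay below the sham level in both genotypes, as it did in 43 of the 87 genes and 33.6% of kept genes.

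Alternative forms or relatives of a subunit had a lower sham genotype difference than the common forms in 5 pairs within the symbol rule. The values were -0.38 for Cox4i2 beside 0.97 for Cox4i1, 0.56 beside 0.63 for subunit 6a and -0.41 beside 0.84 for 6b (log2). Cox7a2l had 0.19 beside 0.40 for Cox7a2, and Ndufa4l2 -0.44 beside 0.75 for Ndufa4. Neither Cox7a2l nor Ndufa4l2 was counted here as a structural subunit. Cox8c, at background, had 0.20 beside 0.55 for Cox8a. Except for Cox7a2l these forms were dim beside the common ones, and background on the Cd39-null, sham array was 2.97. The part of the signal level in these differences was not tested. The pairs that the rule splits went the other way, with 3.86 for Cox7a1 beside 0.40 for Cox7a2 and 3.61 for Cox8b beside 0.55 for Cox8a. Cox4i2, the form found in lung and under low oxygen, had log2 levels of 3.37, 3.22, 2.99 and 3.00, a span of 0.38, while Cox4i1 spanned 1.26. Cox6a2, the form of heart and skeletal muscle, had 3.44, 4.03, 4.00 and 3.26. Cox6b2, a form known from testis, had 4.29, 4.08, 3.88 and 4.24, lowest on the Cd39-null, sham array. Cox7a2l, a factor of supercomplex assembly related to Cox7a2, had log2 levels of 7.32, 7.60, 7.51 and 7.37. Ndufa4, listed here by its symbol in complex I though its protein is now placed in complex IV, had 9.31, 9.12, 10.06 and 9.16. Its relative Ndufa4l2, known as a target of the hypoxia-inducible factor, had 3.93, 3.32, 3.49 and 3.47, with its highest level on wild-type sham. The ligation differences of Ndufa4l2 were -0.61 in wild type and -0.02 in Cd39-null (log2).

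**Figure D3:**
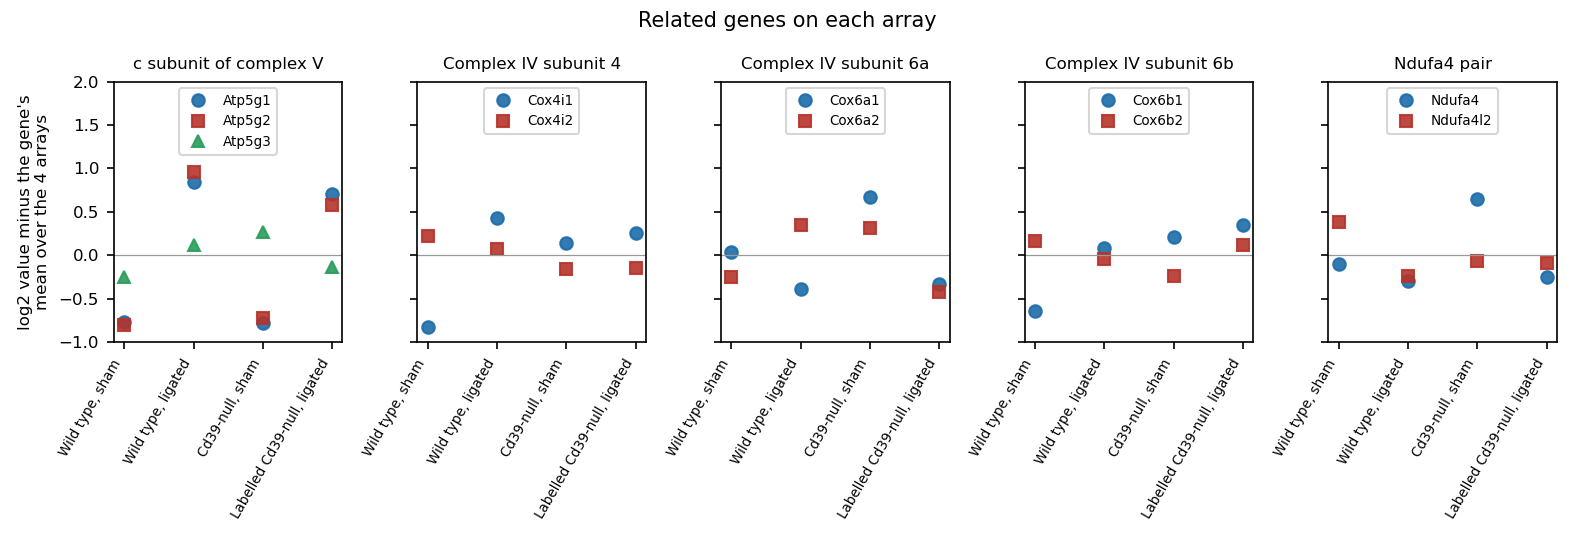
Points are the log2 level on each of the 4 arrays minus the gene's own mean over them, for 5 groups of related genes. Atp5g1 and Atp5g2 lie high on both ligated arrays (log2 ligation differences of 1.30 to 1.77) while Atp5g3 does not, and Cox6a1 and Ndufa4 peak on the Cd39-null, sham array while Cox6b2 and Ndufa4l2 do not.

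Complex V, the ATP synthase, held the genes with the largest positive ligation difference in each genotype, Atp5d in wild type and Atp5g1 in Cd39-null. Its sham genotype median was 0.42 (log2), and its ligation medians were -0.05 in wild type, where the mean was 0.25, and -0.40 in Cd39-null. In mammals 3 genes encode the same mature c subunit, which forms the rotating ring, and they differ in the import peptide that is cut off. Atp5g1 had log2 levels of 5.24, 6.86, 5.23 and 6.71, and Atp5g2 had 5.15, 6.92, 5.24 and 6.54. In both genes each ligated array was above each sham array, by 1.62 and 1.48 (log2) for Atp5g1 in wild type and Cd39-null and by 1.77 and 1.30 for Atp5g2. They were the 2 genes of the 87 at least 2-fold higher after ligation in both genotypes, beside 3.63% of kept genes. Atp5g3 had log2 levels of 8.10, 8.46, 8.61 and 8.22, with ligation differences of 0.37 and -0.40.

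Because this family divides by response, its promoters are printed from the RefSeq table of build GRCm38.p6, each as the 250 bases before the transcript start, 5′ to 3′ on the gene's strand. Capitals mark matches, on either strand, to 6 motifs, written GCGCANGCG for NRF1, CCGGAAG for GABPA, TNAAGGTCA for the oestrogen-related receptor, AANATGGC for YY1, NACGTG for the hypoxia response and CCAAT for the CCAAT box. Atp5g1 lies at chr11:96075632-96075881, Atp5g2 at chr15:102671048-102671297 and Atp5g3 at chr2:73911327-73911576, all on the minus strand.
Atp5g1: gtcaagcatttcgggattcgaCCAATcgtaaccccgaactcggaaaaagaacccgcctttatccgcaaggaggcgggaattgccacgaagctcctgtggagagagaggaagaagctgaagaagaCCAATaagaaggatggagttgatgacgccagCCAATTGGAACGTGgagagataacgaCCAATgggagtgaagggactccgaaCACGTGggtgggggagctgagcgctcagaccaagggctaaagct
Atp5g2: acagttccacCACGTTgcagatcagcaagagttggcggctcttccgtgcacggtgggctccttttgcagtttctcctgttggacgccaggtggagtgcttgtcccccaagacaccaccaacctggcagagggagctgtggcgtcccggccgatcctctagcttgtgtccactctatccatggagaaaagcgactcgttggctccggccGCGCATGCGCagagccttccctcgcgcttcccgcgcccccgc
Atp5g3: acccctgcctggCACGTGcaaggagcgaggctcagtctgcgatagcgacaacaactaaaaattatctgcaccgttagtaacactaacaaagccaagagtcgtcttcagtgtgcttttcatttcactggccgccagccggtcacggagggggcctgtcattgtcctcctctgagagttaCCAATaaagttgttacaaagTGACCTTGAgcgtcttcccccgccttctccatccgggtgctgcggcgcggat

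The Atp5g1 window matched the CCAAT box and the hypoxia response motif, with a stretch where CCAAT is read on both strands and runs into the hypoxia response match. The Atp5g2 window matched NRF1, as a palindrome read on both strands, and the hypoxia response motif. The Atp5g3 window matched the oestrogen-related receptor, hypoxia response and CCAAT motifs, so the hypoxia response letters were in all 3. Those letters were found in 18.4% of the 27025 genes with a promoter in the table, 23.4% of kept genes and 20.8% of the 72 kept respiratory chain genes with one. NRF1 matched 22.2% of these 72 promoters and 10.9% of those of all kept genes, GABPA 20.8% and 13.1%, and YY1 11.1% and 4.73%. The CCAAT box was in 41.7% and 39.1%, and the oestrogen-related receptor motif in 2.78% and 0.876%. Such matches describe letters in a window and were not tested as sites.

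The catalytic head of complex V had other values than the ring. Atp5a1, the alpha subunit, had log2 levels of 6.07, 7.03, 7.15 and 7.04. Atp5d, the delta subunit of the central stalk, had 5.06, 7.43, 6.88 and 6.91. In both, the wild-type, sham array was low and the other 3 arrays were higher, which gave Atp5d the largest wild-type ligation difference (2.37, or 5.18-fold) and the largest sham genotype difference (1.82) of the 87 genes. After ligation in Cd39-null, Atp5d differed by 0.03 and Atp5a1 by -0.11 (log2). The head and central stalk subunits (5 genes) had ligation medians of 0.23 and -0.06.

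In the peripheral stalk, Atp5pb, the b subunit, had log2 levels of 7.62, 7.63, 8.50 and 7.57, with the Cd39-null, sham array apart from the rest. Atp5o, the subunit that joins the stalk to the head, had 6.92, 7.35, 7.50 and 7.26. The 5 small membrane subunits outside the ring (Atp5j2, Atp5k, Atp5l, Atp5md and Atp5mpl) were below 0 after ligation in both genotypes, with medians of -0.47 and -0.63. Atp5md, which takes part in joining ATP synthases into dimers, had log2 levels of 8.38, 7.32, 8.80 and 7.78, and its ligation differences were -1.06 and -1.02. Within complex V, then, 2 ring genes were over 2-fold higher on both ligated arrays where the 5 small membrane subunits were lower.

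**Figure D4:**
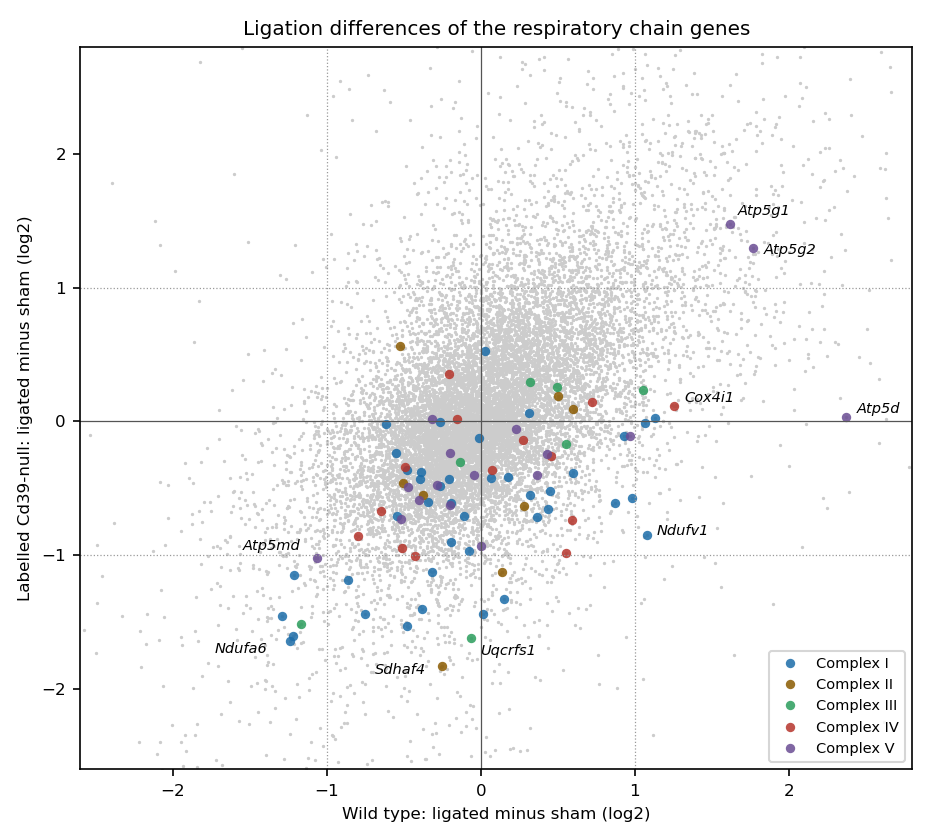
Each coloured point is a respiratory chain gene, with its log2 ligation difference in wild type on the x axis and in Cd39-null as labelled on the y axis; grey points are all kept genes, some of which lie outside the axes, and dotted lines mark 2-fold. Atp5g1 and Atp5g2 lie at the upper right, 6 genes lie below -1 on both axes, and Atp5d lies at 2.37 and 0.03.

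Across the 87 genes the ligation differences of the genotypes, which share no array, had a Pearson r of 0.576 and a Spearman rho of 0.496, beside 0.517 and 0.520 over all kept genes. The points share their arrays and normalization, and genes are not independent replicates. Lower by 2-fold or more in both genotypes were 6 of 87 (1.45% of kept genes): Atp5md, Ndufa1, Ndufa5, Ndufa6, Ndufb6 and Uqcrb. At 1.5-fold Cox7a2, Cox7b, Ndufs4 and Ndufv2 joined them, making 10 of 87 (5.26%), while the higher count stayed at 2 (9.54%). Below 0 in both were 43 of 87 genes (33.6% of kept genes), above 0 in both 13 (34.7%), and above 0 in wild type with a value below 0 in Cd39-null 27 (14.6%). Without the array of doubtful label, the wild-type ligated array was at least 2-fold below both sham arrays for the same 6 genes (1.25% of kept genes). It was as far above both for Atp5g1 and Atp5g2 (4.43%). The 6 are all the genes 2-fold lower in wild type. Each was higher on Cd39-null, sham than on wild-type sham, so comparison with the Cd39-null, sham array could remove none of them.

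Of the genes outside the naming rule, 4 of complex I, singled out after their values were seen, had the widest spans over the arrays. Ndufb5, of the membrane arm, had log2 levels of 7.26, 6.78, 8.16 and 6.63, and Ndufa10, an accessory subunit, had 7.35, 7.37, 8.34 and 6.90. Ndufs3, a core subunit, had 6.47, 6.09, 7.20 and 5.81, and Ndufab1, the mitochondrial acyl carrier protein, had 7.10, 7.25, 8.29 and 6.97. All 4 were highest on the Cd39-null, sham array.

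By role, structural subunits, 74 of the 87, had a sham genotype median of 0.57 (log2), with 68 above 0, beside 43.3% of kept genes. The 11 assembly factors, which help to build the complexes but are not part of them, had a median of -0.23 and a mean of 0.02 there, with 4 above 0. After ligation in wild type the assembly factors stood at -0.34 and the structural subunits at 0.01, and in Cd39-null at -0.46 and -0.48. On the wild-type, sham array the median log2 level was 4.52 over the assembly factors and 7.27 over the structural subunits, and the part of the signal level in these differences was not tested.

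Across all 4 arrays, limma could be fitted with ligation and genotype as additive terms, with 1 residual degree of freedom; unequal responses of the genotypes then enter the error. With Benjamini-Hochberg adjustment over 14115 genes, 0 genes passed 0.05 for ligation or for genotype. At an unadjusted p under 0.05, 2 respiratory chain genes were higher with ligation (13.2% of kept genes), 16 of 87 were lower (7.79%), 2 were higher in Cd39-null (2.28%) and 0 were lower (4.65%). The ligation estimate was 1.55 ± 0.22 (SE, log2) for Atp5g1, with a limma adjusted p of 0.0952, and 1.53 ± 0.25 for Atp5g2, with 0.0963. It was -1.37 ± 0.22 for Ndufa5, with a limma adjusted p of 0.0970, and -1.44 ± 0.24 for Ndufa6, with 0.0975. The genotype estimate of Uqcrq was 0.75 ± 0.22 with a limma adjusted p of 0.686, and Uqcr10 was the other gene with an unadjusted p under 0.05. The 6 genes named here had the sign of their estimate in both genotypes (ligation) or under both treatments (genotype).

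Other genes of fuel oxidation were set beside the respiratory chain. The citric acid cycle enzymes (12 kept) had a sham genotype median of 1.11 (log2) with 12 of 12 above 0 (43.3% of kept genes). Their ligation medians were 0.34 in wild type and -0.78 in Cd39-null. Fatty acid oxidation enzymes (13 kept) had 1.58 between the sham arrays, with 8 at least 2-fold higher and 0 lower, and 0.21 and -1.94 after ligation. Acadm, an acyl-CoA dehydrogenase of medium chains, read 5.88, 5.67, 7.60 and 5.33 (log2), and Suclg1, of succinyl-CoA ligase, read 4.56, 5.80, 6.70 and 5.62. Both peaked on the Cd39-null, sham array, as did Cycs, cytochrome c, at 7.47, 6.48, 8.64 and 7.13. Genes that enter pyruvate into the mitochondrion or control that step (10 kept) had medians of -0.02 and -1.17 after ligation in wild type and Cd39-null, and of 1.00 between the sham arrays.

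Regulators of mitochondrial content varied less as a list, with a sham genotype median of 0.06 over 14 genes. Ppargc1a, a coactivator of mitochondrial biogenesis, had log2 levels of 4.08, 2.84, 5.77 and 2.70, and Gabpa, a subunit of the factor of the GABPA motif, had 5.65, 6.27, 6.67 and 6.22. Ppara, a nuclear receptor of fatty acid oxidation genes, had 2.89, 2.47, 4.29 and 2.11. These 3 were highest on the Cd39-null, sham array, while Pprc1, a coactivator related to Ppargc1a, was lowest there, at 5.15, 5.47, 4.63 and 5.45. Protein import genes (18) had a sham median of 0.52 and ligation medians of 0.17 and 0.07, carriers and other membrane proteins (15) 0.12, 0.01 and -0.28, and assembly factors outside the symbol rule (28) 0.24, 0.07 and -0.23. Glycolysis genes (14) had ligation medians of 0.85 in wild type and 1.54 in Cd39-null and a sham genotype median of 0.10. Slc2a1, a glucose transporter, read 4.41, 5.40, 4.42 and 7.20 (log2).

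The summed signal of fat markers was also highest on the Cd39-null, sham array. It held the highest level of 8 of 11 kept brown adipocyte markers and of 12 of 13 for fat in general. Kcnk3 and Prdm16, of the brown list, were highest on wild-type sham, with sham genotype differences of -0.72 and -0.18 (log2). Dio2, of the same list, peaked on the array of doubtful label, and Cidec, of the general list, on wild-type ligated. The 11 kept brown adipocyte markers had a summed linear signal of 312, 129, 2850 and 122 on the 4 arrays, with 10, 9, 11 and 9 of them above background, and a sham genotype median of 1.69 (log2). Ucp1, the uncoupling protein of brown fat, had log2 levels of 4.14, 2.03, 9.71 and 2.26, so that on both ligated arrays it was under the background of 2.66 and 2.68. Cox7a1 and Cox8b, which are among these markers, are subunit forms of muscle and brown fat that the symbol rule leaves out. They had 4.96, 4.11, 8.82 and 3.83, and 6.45, 3.43, 10.06 and 3.22. The 13 kept markers of white fat and fat in general had a summed signal of 1765, 1682, 3191 and 1314, with all 13 above background on every array. After ligation in wild type, where the respiratory chain median was -0.08, the brown adipocyte markers had -0.82 with 0 of 11 above 0, and the general fat markers 0.19 with 8 of 13 above 0. In Cd39-null, as labelled, the medians were -3.07 and -1.20 beside -0.48. The part of fat in the tissue pieces in the respiratory chain values was not tested.

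Other cell markers also moved between the same arrays. B cell markers (7 kept) had a summed linear signal of 69.8, 45.6, 239 and 50.8, and T cell markers (7 kept) had a sham genotype median of 1.35 (log2), both highest on the Cd39-null, sham array. Macrophage markers (10) were above 0 after ligation in both genotypes for 10 of 10, as Atp5g1 and Atp5g2 were, with medians of 2.05 in wild type and 1.5 in Cd39-null (log2), and 4 of 10 in Cd39-null were under 1.5-fold. Endothelial markers (10) had -1.35 and -0.03, and smooth muscle markers -0.46 and -0.82. Platelet markers (8) had -1.17 and 3.97, and neutrophil markers (9) 0.06 and 0.95. Fibroblast (8) markers had 0.07 and -0.47, cardiac muscle (10) -0.46 and -0.24, skeletal muscle (8) -0.26 and 0.00, and erythroid (3) -0.39 and 0.61. Their part in the values of the respiratory chain genes was not tested.

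**Figure D5:**
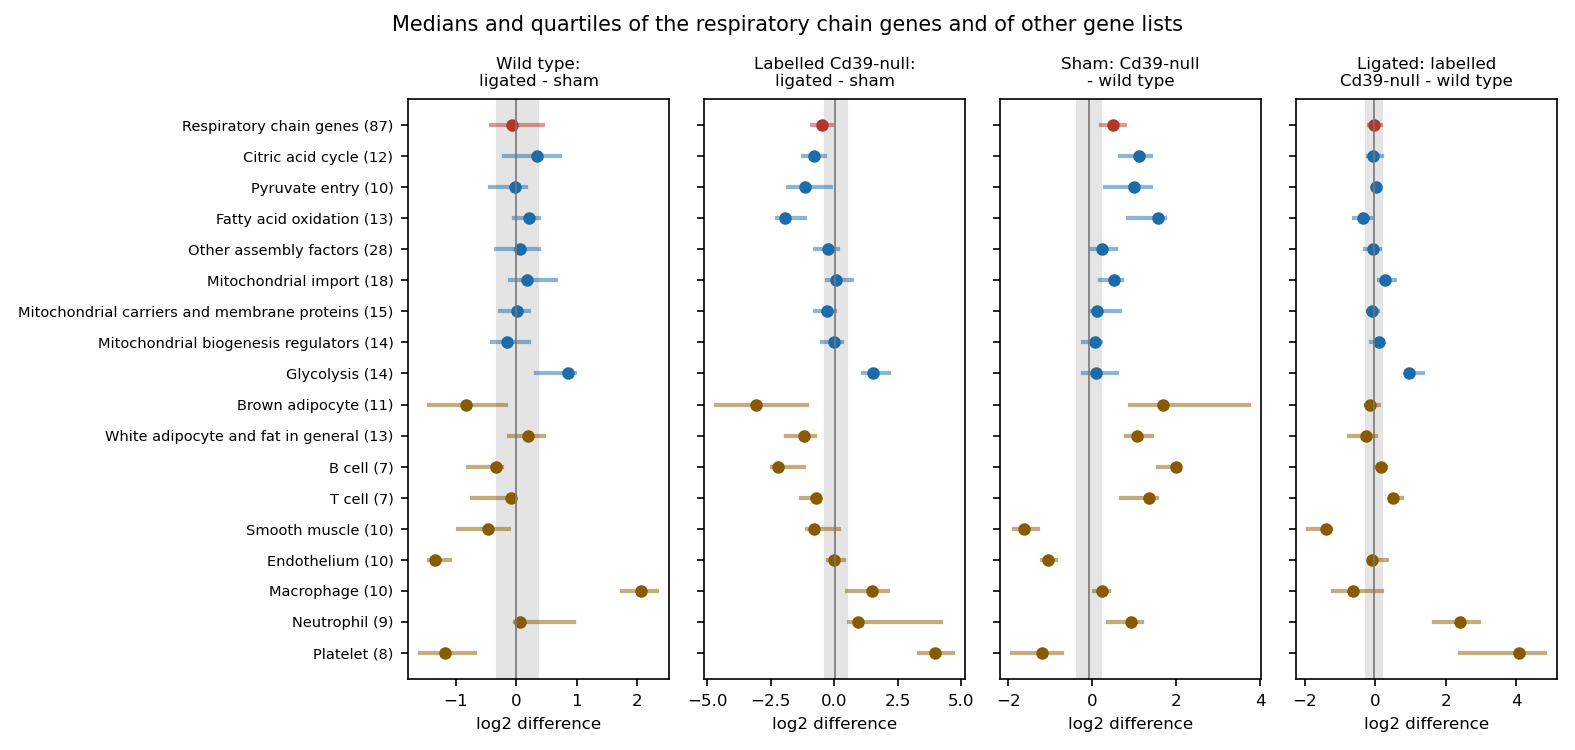
Points are list medians and bars the quartiles of log2 differences in 4 comparisons, for the respiratory chain genes (red), other metabolic and mitochondrial lists (blue) and cell markers (brown), with the number of kept genes in brackets; the grey line and band are the median and quartiles of all kept genes, and the x axes differ between panels. Between the sham arrays the respiratory chain (0.49), fatty acid oxidation (1.58) and brown adipocyte markers (1.69) lie to the right of the line, and after ligation in Cd39-null all 3 lie to its left.

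Probe sets of the same gene mostly gave like values. Of the 87 genes, 24 had several probe sets, and 0 had probe sets that were 1.5-fold apart from 0 in opposite directions in a comparison. Both Atp5g1 probe sets had log2 ligation differences of 1.15 and 1.62 in wild type, and the 3 of Atp5g2 ran from 1.58 to 1.90. The 3 of Atp5md ran from -1.07 to -1.04 and the 3 of Uqcrb from -1.47 to -1.07. Uqcr11 was less even, since its dimmer probe set gave 1.51 after ligation in Cd39-null where the brighter gave 0.23. For Cox7b the other probe set gave -0.34 in wild type, short of 1.5-fold, and -0.81 in Cd39-null. Ndufb5 likewise gave -0.48 in wild type from the brighter and 0.63 from the dimmer. Copies of these genes elsewhere in the genome can share probes, so genes with several probe sets are the less certain ones. Whether the brightest probe sets printed here for Atp5g2, Atp5md, Cox7b and Ndufb11 target the gene or such a copy was not tested, since probe positions were not used.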

How the data were processed

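Total RNA of the inferior vena cava, pooled from 4 mice a group, was amplified from 50 ng and hybridised to 1 Affymetrix whole-transcript array for each of 4 groups, per the labels' protocols and the design text. The authors deposited log2 values for each probe set, computed by RMA in oligo according to the submitters' processing notes. The genome build was not given in the sources used here, nor were software versions. Because RMA quantile normalises the arrays, a global shift in RNA content would be hidden. For arrays no read depth applies, and their number limits the precision. Columns without a sample numbered 0.

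Of 35556 probe sets, 21218 carried 1 gene symbol in the platform annotation, 1881 several and 12457 none. A gene was its brightest probe set by the mean over 4 arrays (121 probe sets for the 88 genes), and genes were kept at or above the 25th percentile of that mean (2.29). All 88 genes matched a RefSeq table (assembly GRCm38.p6) by Entrez identifier, with 0 symbols differing. Promoters were found there for 73. The 13 subunits encoded by mitochondrial DNA, and Cox7c, Uqcrc2 and Ndufa13, which have only probe sets of several symbols, were not analysed here as genes. Differences between 2 arrays were counted at 2-fold, as a description without a test. limma 3.58.1 (R 4.3.3) was fitted over all kept genes with additive ligation and genotype terms and Benjamini-Hochberg adjustment, and was tested on simulated data. Summaries used Python 3.11.15 with pandas 2.3.3 and numpy 2.4.6.

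Genes named with all 4 values were, per complex, up to 4 with the largest and 2 with the smallest sham genotype difference, those 1.5-fold apart in one direction after ligation in both genotypes, the isoform pairs, and up to 4 per list by the mean size of the ligation differences. The members and lists were chosen with earlier results of these data known. Alternatives covered probe set choice, membership, Ndufa4 in complex IV, normalization, filters, the fold, the mean, the reference array and the limma design. Substituting the wild-type ligated array and reading each other probe set were chosen after seeing the data.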

Additional observations from a re-analysis of the deposited data

Results flagged for a closer look

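The genotype difference had opposite signs under sham and after ligation for several medians. For all 87 respiratory chain genes it was 0.49 (log2) under sham and -0.03 after ligation. The second value is that of all kept genes (-0.03), and over the 74 structural subunits it was 0.00, so its sign depends on membership. Complex I, which accepts electrons from NADH, had 0.61 and -0.06. Complex II had 0.46 and -0.23, and complex IV had 0.38 and -0.11. Each was picked out because the pair of values differs in sign between treatments, and with 1 array a group the difference was not tested.

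The ligation difference had opposite signs in wild type and Cd39-null for complex III, with medians of 0.32 and -0.17 (log2). The mean of each gene's probe sets gave 0.079 for the first, the means over genes were 0.15 and -0.40, and wild-type sham as the reference gave 0.55 for the second. Among single genes it did so at 1.5-fold or more for Cox6a2 (0.59 and -0.74), Ndufa9 (0.87 and -0.61) and Ndufv1 (1.08 and -0.85). These differences between the genotypes were not tested either, and the Cd39-null values use the array whose Entpd1 level goes against its label.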

How the results depend on the processing

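No paired analysis was possible because each group is 1 array. Of the summary values under alternatives, 339 stayed within 0.2 (log2) of the main median or 1.5 times the main count, 30 moved and 1 reversed, where a median within 0.2 of 0 was not counted as reversed (15 such medians turned sign); of the values of single genes, 520 stayed, 80 moved and 0 reversed. At 1.5-fold, the counts were 16 higher and 11 lower in wild type after ligation, 37 lower in Cd39-null, 37 higher between sham genotypes, 4 higher and 2 lower between ligated genotypes, and 2 higher and 36 lower for the difference of the ligation differences. With means, complex V was at 0.25 after ligation in wild type, and complex III at -0.40 in Cd39-null and -0.55 for the difference of the differences. With the mean of a gene's probe sets, complex III was at 0.079 in wild type. With structural subunits alone, complex II was at 0.39, -0.27 and -0.71 for the same 3 quantities, and 0 genes were 2-fold higher in the difference of the differences. Quantile normalization gave complex III -0.45 after ligation in Cd39-null, cyclic loess -0.42, and both gave 0 in place of 1 for that higher count; cyclic loess gave 5 genes in place of 8 higher in wild type. With wild-type sham as the reference of the array labelled Cd39-null, ligated, the median was -0.057, with 7 higher and 4 lower, complex I at -0.18, II at -0.13, III at 0.55 and V at 0.059, both opposite in sign to the values against Cd39-null sham (-0.17 and -0.40). With the wild-type ligated array against Cd39-null sham, complexes III and IV were at -0.44 and -0.12. With genotype as the sole limma term, 0 respiratory chain genes were higher at an unadjusted p under 0.05. Across the alternatives the limma count at an adjusted p under 0.05 was 0 among all features fitted. The cause of these shifts was not tested. Background limits dim genes such as Cox8c, which was at or under it on every array.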

Other observations

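Probe sets that carry several gene symbols stand outside the comparisons but cover further subunits. The 3 probe sets of Cox7c, a small complex IV subunit that shares them with the predicted gene Gm10012, had log2 levels of 8.61 to 8.65 on wild-type sham, 8.05 to 8.26 on wild-type ligated, 9.08 to 9.11 on Cd39-null sham and 8.06 to 8.28 on the array labelled Cd39-null, ligated. The brighter of the probe sets shared by Uqcrc2, a core subunit of complex III, and Pdzd9 read 6.08, 6.69, 7.90 and 6.67 in the same order, and the dimmer read 3.30, 2.54, 3.22 and 2.63. For Ndufa13, shared with Tssk6, the brighter read 5.16, 4.84, 5.00 and 4.98. The Cox7c and brighter Uqcrc2 values were highest on the Cd39-null, sham array, and those of Ndufa13 on wild-type sham.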
